A study of Pogona vitticeps with 24 samples.

Results

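*GLI1*, *GAS1*, *FGF9* and *SPRY4* are 4 genes of the Hedgehog and FGF signaling pathways that were followed here through dental tissues of the bearded dragon *Pogona vitticeps*. They are known pathway components, taken by symbol with earlier results of these data known, and all 4 are among the 11126 genes of the expression table. In vertebrates, a Hedgehog ligand binds its receptor patched, which frees smoothened to activate GLI transcription factors, and *GLI1* and *PTCH1* are themselves switched on by the pathway. FGF ligands bind tyrosine kinase receptors that signal through RAS and MAP kinases, and this cascade switches on its own inhibitors, among them the sprouty genes. In mouse teeth, both pathways carry signals between the epithelium and the mesenchyme around it from tooth initiation onward.

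RNA was sequenced from dental lamina epithelium and the surrounding mesenchyme of hatchlings, collected by laser capture microdissection. The lamina was at the successional dental lamina stage of hatchlings, taken as corresponding to the dental lamina and tooth initiation stage of embryos. *Sca*/+ animals, called scaleless in the sample labels, carry 1 mutated copy of the *EDA* locus, which encodes the ligand ectodysplasin, and the WT animals carry none. Posterior tissue comes from the position where WT teeth are acrodont (fused to the jaw and not replaced) and anterior tissue from the position where they are pleurodont (replaced). The groups are *Sca*/+ and WT posterior epithelium, *Sca*/+ and WT anterior epithelium, *Sca*/+ and WT posterior mesenchyme, and *Sca*/+ and WT anterior mesenchyme, with 3 samples in each of the 8 groups and 3 animals of each genotype. The dental phenotype of each *Sca*/+ animal was judged only roughly by eye before sectioning.

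The deposited values are 1 log2 CPM (read counts scaled to library size by the authors) per gene and group, named as means, so no value has a replicate error and no difference between groups was tested over animals. No use was made of WT posterior epithelium, for which 11121 of the 11126 values are a running series with a constant increment of 1e-09. In each of the other 7 groups, the values are integer multiples of a single unit, as read counts times a constant would be, and these units, called steps, were taken as counts. Total depth lay between 789353 steps in *Sca*/+ anterior mesenchyme and 3264515 steps in *Sca*/+ posterior epithelium. Intervals are 95% counting intervals (exact, Poisson for a level and Clopper-Pearson for a log2 difference) and leave out both the spread between animals and that of amplification. Higher or lower is a call made where 2 groups differ by 1 log2 unit (2-fold) or more. The genes compared are the 9987 whose mean over the 7 groups reached 3 log2 CPM, and they include all 4 genes. The lowest value in a group used was 1.13 CPM, so a gene undetected in any of these groups has no place in the table or in the counts of listed genes. Summed markers of epithelium (23 of 30 in the table) lay between 16317 and 22511 CPM in epithelium and between 4996 and 9062 CPM in mesenchyme. Summed markers of mesenchyme (29 of 31) lay between 13704 and 23405 CPM in epithelium and between 64573 and 173970 CPM in mesenchyme. The labelled compartments thus separate by both lists, and neither is at 0 in the other compartment. Among epithelial markers, *KRT5* and *KRT14* were not analysed here.

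**Figure D1:**
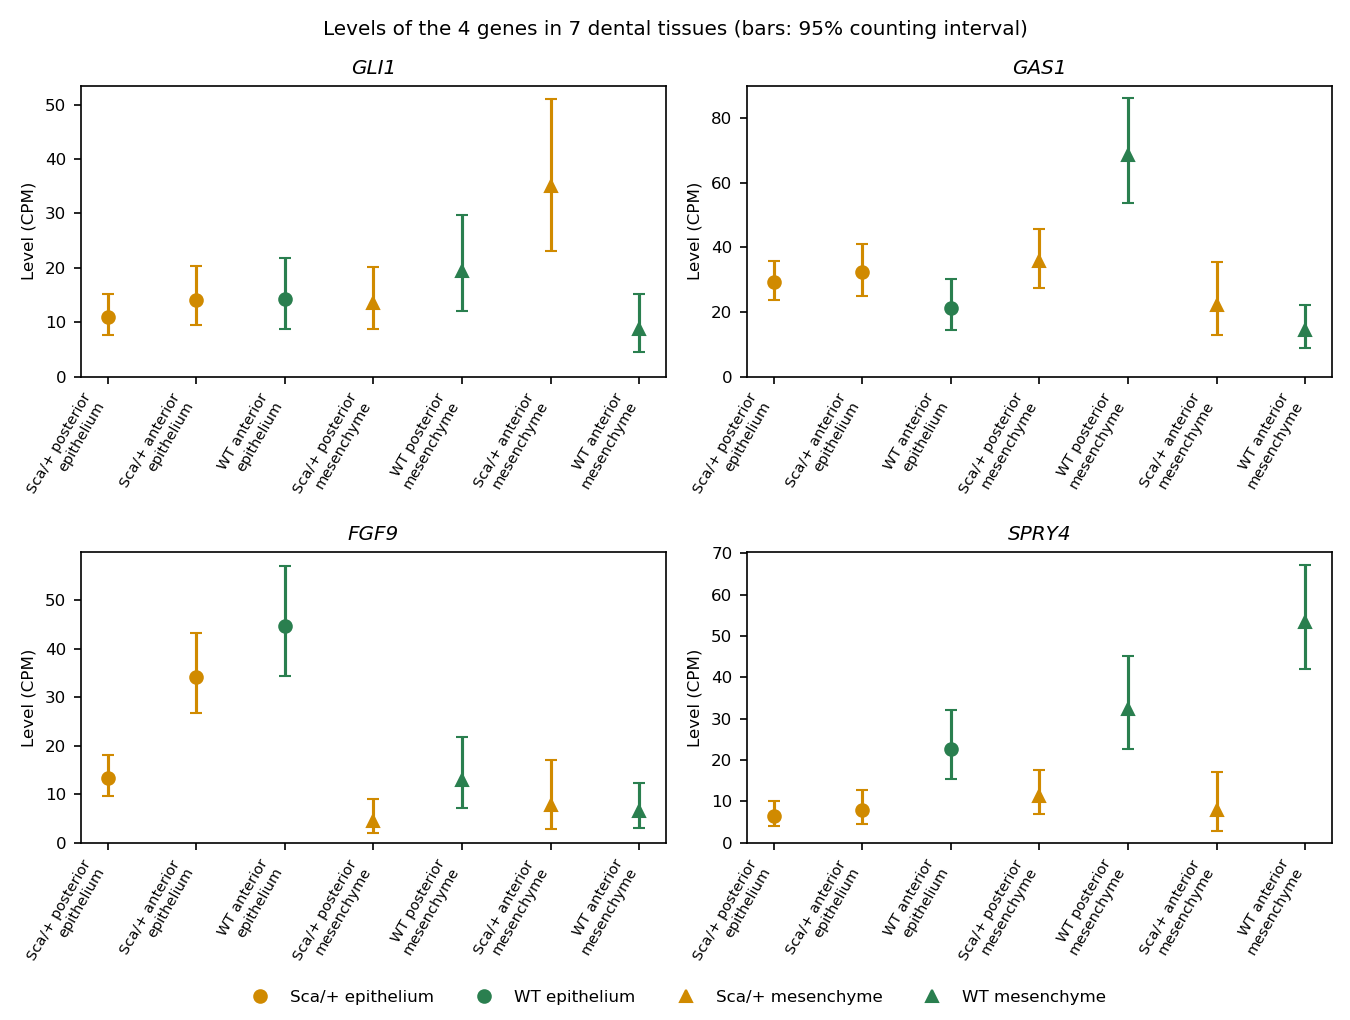
Level (CPM, linear axis from 0) of *GLI1*, *GAS1*, *FGF9* and *SPRY4* in the 7 groups used, with 95% counting intervals. Points are the authors' group values; *Sca*/+ is amber, WT green, epithelium circles and mesenchyme triangles. *GLI1* peaks at 35.1 CPM in *Sca*/+ anterior mesenchyme, *GAS1* at 68.6 CPM in WT posterior mesenchyme and *FGF9* at 44.6 CPM in WT anterior epithelium, while the 4 *Sca*/+ values of *SPRY4* all lie below its 3 WT values.

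*GAS1* encodes a membrane-anchored co-receptor that helps present Hedgehog ligand to patched. It stood at 29.2 CPM in *Sca*/+ posterior epithelium, 32.2 CPM in *Sca*/+ anterior epithelium and 21.2 CPM in WT anterior epithelium. In mesenchyme it stood at 35.7 CPM in *Sca*/+ posterior, 68.6 CPM in WT posterior, 22.1 CPM in *Sca*/+ anterior and 14.4 CPM in WT anterior tissue. WT posterior mesenchyme was the highest group, and it was separated beyond counting error from the next one, *Sca*/+ posterior mesenchyme. The 5 other adjacent pairs in the order of levels were each within counting error. Between the WT positions, *GAS1* was 4.75-fold higher in posterior than in anterior mesenchyme, a difference of 2.25 log2 units (interval 1.52 to 3.04). Of all genes compared, 69 (0.691%) were higher in posterior tissue by as much or more. In *Sca*/+ mesenchyme the same comparison gave 0.69 (-0.10 to 1.56), and the difference between these differences was -1.56 (-2.61 to -0.51). The summed mesenchymal markers moved in the same direction between the WT positions, with 173970 CPM in posterior and 64573 CPM in anterior mesenchyme. Of the 29, 11 were called higher and none lower. Also higher in posterior tissue were summed markers of endothelium (3171 and 1447 CPM), bone and dentin (4067 and 1733 CPM) and nerve and glia (1525 and 414 CPM). The 1 muscle marker in the table moved the same way (261 and 7.94 CPM). Summed leukocyte markers (103 and 376 CPM) and epithelial markers (4996 and 6244 CPM) were lower there. The part of these markers in the result was not tested. In bulk tissue, fewer cells of a type and less RNA per cell cannot be told apart.

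The genotypes differed in *GAS1* by -0.94 (-1.45 to -0.44) in posterior mesenchyme, which is short of the 1 log2 unit used for a call. There the mesenchymal markers summed to 92476 CPM (*Sca*/+) and 173970 CPM (WT), with 1 called higher and 5 lower, and their part in the differences of *GAS1* and *FGF9* in this tissue was not tested. In anterior epithelium the difference was 0.60 (-0.04 to 1.27) and in anterior mesenchyme 0.62 (-0.41 to 1.62), and both intervals include 0. Between the compartments, *GAS1* differed by -0.29, 0.54 and 0.56 log2 units (epithelium minus mesenchyme) in *Sca*/+ posterior, *Sca*/+ anterior and WT anterior tissue, and none of these 3 intervals excludes 0. The other co-receptors measured were *CDON* and *BOC*. *CDON* differed by -0.02 to 0.20 between the genotypes in the 3 pairs, so that no pair was called. *BOC* was higher in *Sca*/+ by 0.66 (0.47 to 0.85) in anterior epithelium, 1.16 (0.93 to 1.39) in anterior mesenchyme and 0.34 (0.12 to 0.55) in posterior mesenchyme. Of these only anterior mesenchyme reached a call, which ends at 0.93 when each group is rescaled to the same total. All 4 *Sca*/+ values of *BOC* (310 to 459 CPM) lay above all 3 WT values (206 to 246 CPM), as did those of 7.40% of all genes compared.

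*GLI1* encodes a transcription factor whose own expression is widely read as a sign of active Hedgehog signaling. It stood at 10.9 CPM in *Sca*/+ posterior epithelium, 14.2 CPM in *Sca*/+ anterior epithelium and 14.2 CPM in WT anterior epithelium. In mesenchyme it stood at 13.6 CPM in *Sca*/+ posterior, 19.5 CPM in WT posterior, 35.1 CPM in *Sca*/+ anterior and 8.66 CPM in WT anterior tissue. The highest and the lowest group were thus both anterior mesenchyme, of *Sca*/+ and of WT animals. They rest on 27 and 12 steps, and *Sca*/+ anterior mesenchyme is the group of lowest depth. *GLI1* was 4.06-fold higher in *Sca*/+ than in WT anterior mesenchyme, a difference of 2.02 log2 units (0.99 to 3.14). In the same direction, 138 genes (1.38%) differed as far or farther. No adjacent pair in the order of the 7 levels was separated beyond counting error, although the 2 ends were.

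In anterior epithelium *GLI1* differed between the genotypes by -0.00 log2 units (-0.87 to 0.90), and in posterior mesenchyme by -0.52 (-1.42 to 0.40). The genotype difference in anterior epithelium was lower than that in anterior mesenchyme by 2.02 log2 units (difference -2.02, interval -3.30 to -0.74). Along the jaw, *GLI1* was lower in posterior than in anterior mesenchyme of *Sca*/+ animals, at -1.37 log2 units (-2.23 to -0.52). In WT mesenchyme it was higher in posterior tissue by 1.17 (0.08 to 2.33), a call that ends at 0.91 when each group is rescaled to the same total. The sum and the median of the mesenchymal markers moved the same way along the jaw. In *Sca*/+ mesenchyme they summed to 92476 CPM in posterior and 140948 CPM in anterior tissue (median difference -0.22). There, however, 3 of the 29 were called higher in posterior tissue and 2 lower. In WT mesenchyme the sums were 173970 CPM in posterior and 64573 CPM in anterior tissue (0.85), with 11 called higher and none lower. Their part was not tested. Between the compartments, *GLI1* was lower in epithelium than in mesenchyme in *Sca*/+ anterior tissue, at -1.31 (-2.12 to -0.50). The same difference was 0.71 (-0.39 to 1.88) in WT anterior tissue and -0.32 (-1.11 to 0.49) in *Sca*/+ posterior tissue. Mesenchymal markers moved with the *GLI1* difference between the genotypes in anterior mesenchyme, with sums of 140948 CPM (*Sca*/+) and 64573 CPM (WT). Of the 29, 10 were called higher and 1 lower, and their part in the result was not tested.

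Patched 1 (*PTCH1*), the main Hedgehog receptor, gave values in the same groups. In anterior mesenchyme it stood at 203 CPM in *Sca*/+ and 128 CPM in WT tissue, a difference of 0.67 (0.35 to 0.99), which is short of a call. It differed by -0.50 (-0.82 to -0.17) in posterior mesenchyme and by -0.75 (-1.12 to -0.39) in anterior epithelium. Within *Sca*/+ mesenchyme, *PTCH1* was lower in posterior than in anterior tissue, at -1.04 (-1.36 to -0.72), and within WT mesenchyme the same comparison gave 0.12 (-0.20 to 0.44). As for *GLI1*, the difference between these position differences was below 0, at -1.16 (-1.61 to -0.72). In each of these comparisons the median difference of the mesenchymal markers had the same sign as that of *PTCH1*. By genotype it was 0.60 in anterior mesenchyme, -0.58 in posterior mesenchyme and -0.28 in anterior epithelium. By position it was -0.22 in *Sca*/+ and 0.85 in WT mesenchyme, and the part of these markers was not tested. The comparisons in mesenchyme, by genotype and by position, share the same 4 values of a gene.

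Smoothened (*SMO*), the signal-passing partner of patched, was higher in *Sca*/+ than in WT anterior mesenchyme (101 and 44.0 CPM) by 1.20 (0.70 to 1.71), a call that ends at 0.97 when each group is rescaled to the same total. It differed by 0.65 (0.24 to 1.07) in anterior epithelium and by -0.12 (-0.59 to 0.37) in posterior mesenchyme. *GLI2* and *GLI3*, the GLI factors that pass the signal on before *GLI1* is induced, differed by 0.53 and 0.80 in anterior epithelium, by 0.61 and 0.31 in anterior mesenchyme and by -0.28 and -0.40 in posterior mesenchyme, with no call in these pairs. *FOXF1* and *FOXF2*, forkhead factors induced by Hedgehog signals in mouse mesenchyme, showed no call by genotype, with differences between -0.46 and 0.33. They were lower in epithelium than in mesenchyme in all 3 pairs, at -1.33 to -1.99 log2 units for *FOXF1* and at -1.34 to -2.82 for *FOXF2*. For both, all epithelium values lay below all mesenchyme values, as did those of 11.9% of all genes compared.

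**Figure D2:**
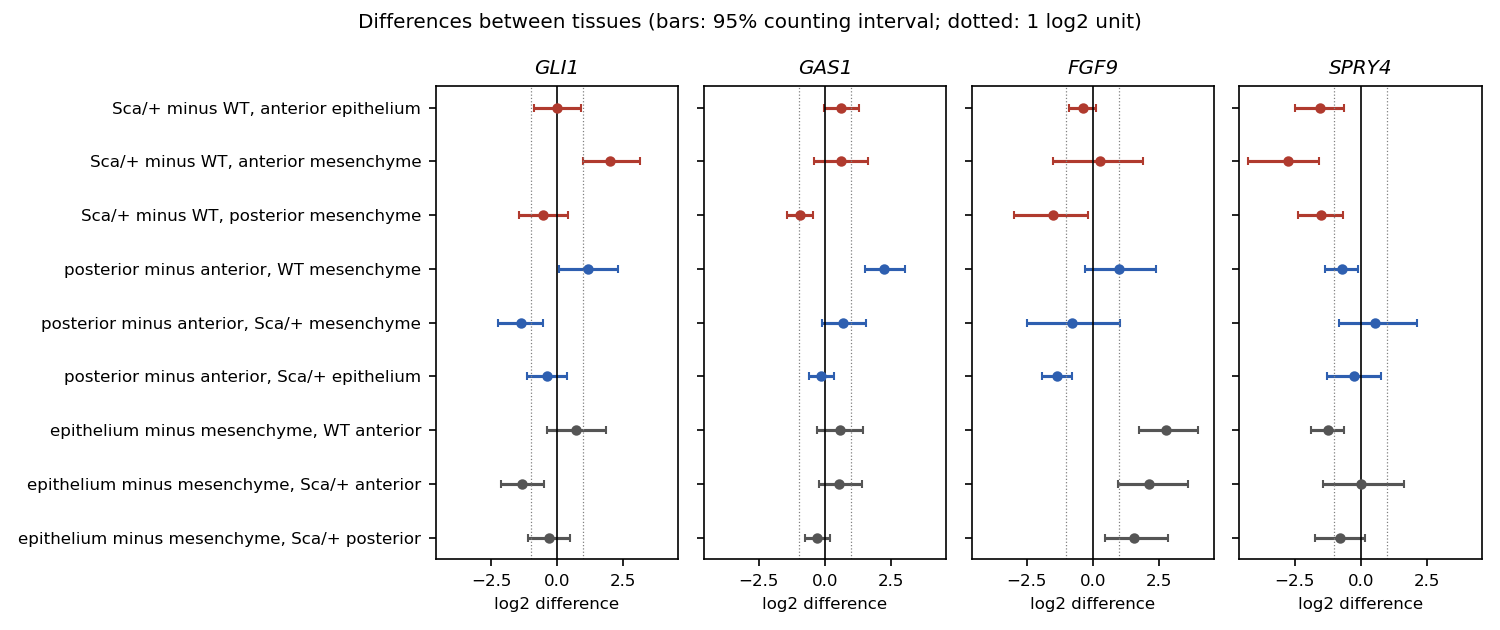
Log2 differences of the 4 genes in the 9 comparisons, with 95% counting intervals; red marks *Sca*/+ minus WT, blue posterior minus anterior and grey epithelium minus mesenchyme, and dotted lines mark 1 log2 unit. *SPRY4* lies beyond -1 in all 3 comparisons by genotype and *FGF9* beyond 1 in all 3 between compartments, while *GLI1* lies on opposite sides of 0 in WT and *Sca*/+ mesenchyme.

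*FGF9* encodes a secreted ligand that is made by the dental epithelium in mouse. It stood at 13.4 CPM in *Sca*/+ posterior epithelium, 34.2 CPM in *Sca*/+ anterior epithelium and 44.6 CPM in WT anterior epithelium. In mesenchyme it stood at 4.53 CPM in *Sca*/+ posterior, 13.0 CPM in WT posterior, 7.81 CPM in *Sca*/+ anterior and 6.50 CPM in WT anterior tissue. All 3 epithelium values lay above all 4 mesenchyme values, as did those of 9.93% of all genes compared, but *Sca*/+ posterior epithelium exceeded WT posterior mesenchyme by only 0.04 log2 units (-0.85 to 1.03). The mesenchyme values rest on 6 to 14 steps each and were not separated from each other in adjacent pairs. The whole range, from WT anterior epithelium down to *Sca*/+ posterior mesenchyme, was 9.85-fold.

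The excess of *FGF9* in epithelium was 6.87-fold in WT anterior tissue, an extent that 11 genes (0.110%) reached. It was 4.38-fold in *Sca*/+ anterior tissue (136 genes, 1.36%) and 2.95-fold in *Sca*/+ posterior tissue (436 genes, 4.37%). The 3 values did not differ from each other beyond counting error in the pairs compared: *Sca*/+ minus WT gave -0.65 (-2.22 to 0.92) in anterior tissue, and posterior minus anterior gave -0.57 (-2.19 to 1.06) in *Sca*/+ tissue. Within *Sca*/+ epithelium, *FGF9* was lower in posterior than in anterior tissue at -1.35 log2 units (-1.94 to -0.79), and 311 genes (3.11%) were lower by as much. Summed mesenchymal markers were 23405 CPM in the posterior and 13704 CPM in the anterior *Sca*/+ epithelium, whereas summed epithelial markers were 22511 and 21168 CPM, and the part of either in the *FGF9* difference was not tested. In mesenchyme the position difference was -0.79 (-2.50 to 1.02) in *Sca*/+ and 1.00 (-0.31 to 2.39) in WT tissue, just short of a call before rounding. By genotype, *FGF9* was lower in *Sca*/+ than in WT posterior mesenchyme at -1.52 (-2.98 to -0.16), on 8 and 14 steps. It differed by -0.38 (-0.90 to 0.13) in anterior epithelium and by 0.26 (-1.51 to 1.92) in anterior mesenchyme.

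The other FGF ligands with values were *FGF7* and *FGF10*, which signal from mesenchyme to epithelium in many organs of mouse. Both had the opposite compartment pattern to *FGF9*. All their epithelium values lay below all their mesenchyme values, as did those of 11.9% of all genes compared. *FGF10* was lower in epithelium at -2.87 (-3.30 to -2.46) in *Sca*/+ posterior, -2.88 (-3.67 to -2.14) in *Sca*/+ anterior and -4.29 (-5.44 to -3.33) in WT anterior tissue. *FGF7* was lower in epithelium at -2.34, -2.88 and -2.60 in these pairs, and within WT mesenchyme it was lower in posterior than in anterior tissue at -1.44 (-1.91 to -0.99). By genotype, *FGF7* was lower in *Sca*/+ anterior epithelium at -1.10 (-1.97 to -0.25) and differed by -0.82 (-1.05, and a call, after rescaling) and 0.60 in anterior and posterior mesenchyme, while *FGF10* showed no call. Of the 22 FGF ligands listed, the other 19 were not analysed here, and the same holds for the Hedgehog ligands.

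Among the receptors, *FGFR1* was higher in *Sca*/+ than in WT anterior epithelium by 1.12 (0.82 to 1.44), or 0.99 after rescaling to the same total, which ends the call, and differed by 0.69 (0.33 to 1.04) and 0.20 (-0.07 to 0.49) in anterior and posterior mesenchyme. *FGFR2* differed by -0.00 to 0.31 between the genotypes. *FGFR3* was higher in posterior than in anterior mesenchyme in both genotypes, by 1.47 (0.98 to 1.99) in *Sca*/+ and 1.18 (0.83 to 1.54) in WT tissue, where rescaling to the same total gives 0.92 and ends the call. The same position pattern was seen in *ETV1*, a transcription factor induced by FGF signals, with 1.89 (1.49 to 2.31) in *Sca*/+ and 1.44 (1.15 to 1.73) in WT mesenchyme. *ETV5*, another such factor, was called in no comparison by genotype or position.

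*SPRY4* encodes sprouty 4, an intracellular inhibitor of receptor tyrosine kinase signaling that FGF signals induce. It stood at 6.53 CPM in *Sca*/+ posterior epithelium, 7.81 CPM in *Sca*/+ anterior epithelium and 22.7 CPM in WT anterior epithelium. In mesenchyme it stood at 11.3 CPM in *Sca*/+ posterior, 32.4 CPM in WT posterior, 7.81 CPM in *Sca*/+ anterior and 53.4 CPM in WT anterior tissue. The 4 *Sca*/+ values did not overlap with the 3 WT values, a pattern noticed in these values that 5.10% of all genes compared had in this direction. The groups of a genotype are tissues of the same 3 animals, so these values are not independent observations of the genotype. Whether a value holds 1 library or pooled reads is not known, so each may rest on as few as 1 animal. The nearest values of the genotypes, *Sca*/+ posterior mesenchyme and WT anterior epithelium, are 1.00 log2 unit apart (0.15 to 1.88), and adjacent *Sca*/+ values were not separated from each other.

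*SPRY4* was lower in *Sca*/+ than in WT tissue at -1.54 log2 units (-2.50 to -0.63) in anterior epithelium, -2.77 (-4.27 to -1.58) in anterior mesenchyme and -1.52 (-2.39 to -0.69) in posterior mesenchyme. As folds, these are 2.90, 6.84 and 2.86. In anterior mesenchyme, 48 genes (0.481%) were lower in *Sca*/+ by as much or more. In anterior epithelium there were 348 such genes (3.48%) and in posterior mesenchyme 288 (2.88%). A difference of at least 1 log2 unit in this direction in all 3 pairs was found in 32 genes (0.320%), and *SPRY4* was the only one of the Hedgehog and FGF lists among them. This count was not planned and restates the pattern seen in *SPRY4* itself, so it is a description and no test. The value of *Sca*/+ anterior mesenchyme rests on 6 steps, against 74 in WT anterior mesenchyme. The 3 genotype differences were not separated from each other: anterior epithelium minus anterior mesenchyme gave 1.24 (-0.24 to 2.72), and anterior minus posterior mesenchyme -1.26 (-2.69 to 0.18). Marker lists moved in these pairs too. The median difference of mesenchymal markers (*Sca*/+ minus WT) was -0.28 in anterior epithelium, 0.60 in anterior mesenchyme and -0.58 in posterior mesenchyme, and that of epithelial markers 0.28, 0.65 and 0.50 in these pairs. The leukocyte markers (4 of 10 in the table) were lower in sum in *Sca*/+ in all 3 pairs, though only slightly in posterior mesenchyme. They summed to 35.7 CPM (*Sca*/+) and 69.4 CPM (WT) in anterior epithelium, to 191 CPM (*Sca*/+) and 376 CPM (WT) in anterior mesenchyme, and to 98.0 CPM (*Sca*/+) and 103 CPM (WT) in posterior mesenchyme. Of the 3 leukocyte markers compared singly, 1 was called lower in each pair. Above 0 were 1 in anterior epithelium, 0 in anterior mesenchyme and 1 in posterior mesenchyme. The other lists were not lower in sum in all 3 pairs. Endothelial markers (10 of 14 in the table) summed to 44.5 CPM (*Sca*/+) and 130 CPM (WT) in anterior epithelium. In anterior mesenchyme they summed to 1767 and 1447 CPM, and in posterior mesenchyme to 2103 and 3171 CPM. Sums of bone and dentin markers and of nerve and glia markers were lower in *Sca*/+ anterior epithelium and higher in *Sca*/+ mesenchyme of both positions. The part of these marker lists in the *SPRY4* differences was not tested.

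Within a genotype, *SPRY4* was called only between the anterior compartments of WT tissue. In WT tissue it was lower in anterior epithelium than in anterior mesenchyme at -1.24 (-1.88 to -0.62), and differed by -0.72 (-1.34 to -0.12) between posterior and anterior mesenchyme. In *Sca*/+ tissue it differed by 0.00 (-1.43 to 1.64) between the anterior compartments, by -0.79 (-1.75 to 0.16) between the posterior ones, by 0.54 (-0.83 to 2.14) between posterior and anterior mesenchyme and by -0.26 (-1.27 to 0.78) between posterior and anterior epithelium.

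The other feedback inhibitors of the FGF cascade did not share the genotype pattern of *SPRY4* in all 3 pairs. *SPRY1* differed by 0.36 (0.10 to 0.61) in anterior epithelium, -0.73 (-1.14 to -0.34) in anterior mesenchyme and -0.22 (-0.57 to 0.13) in posterior mesenchyme. *SPRY2* differed by -0.02, -0.36 and 0.12 in these pairs, and all 3 intervals include 0. *SPRED1*, which blocks RAF activation, was lower in *Sca*/+ anterior epithelium at -1.29 (-1.67 to -0.92) and differed by 0.15 and -0.50 in anterior and posterior mesenchyme. *DUSP6*, a phosphatase of the MAP kinase ERK, differed by -0.39, 0.47 and 0.79. *DUSP4*, a nuclear phosphatase of MAP kinases, was higher in *Sca*/+ anterior epithelium by 1.25 (0.14 to 2.50). *IL17RD*, a membrane inhibitor of FGF signaling, differed by -0.54, 0.09 and -0.54. Of the 8 inhibitors compared, *SPRY4* was the only one called in more than 1 pair by genotype.

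**Figure D3:**
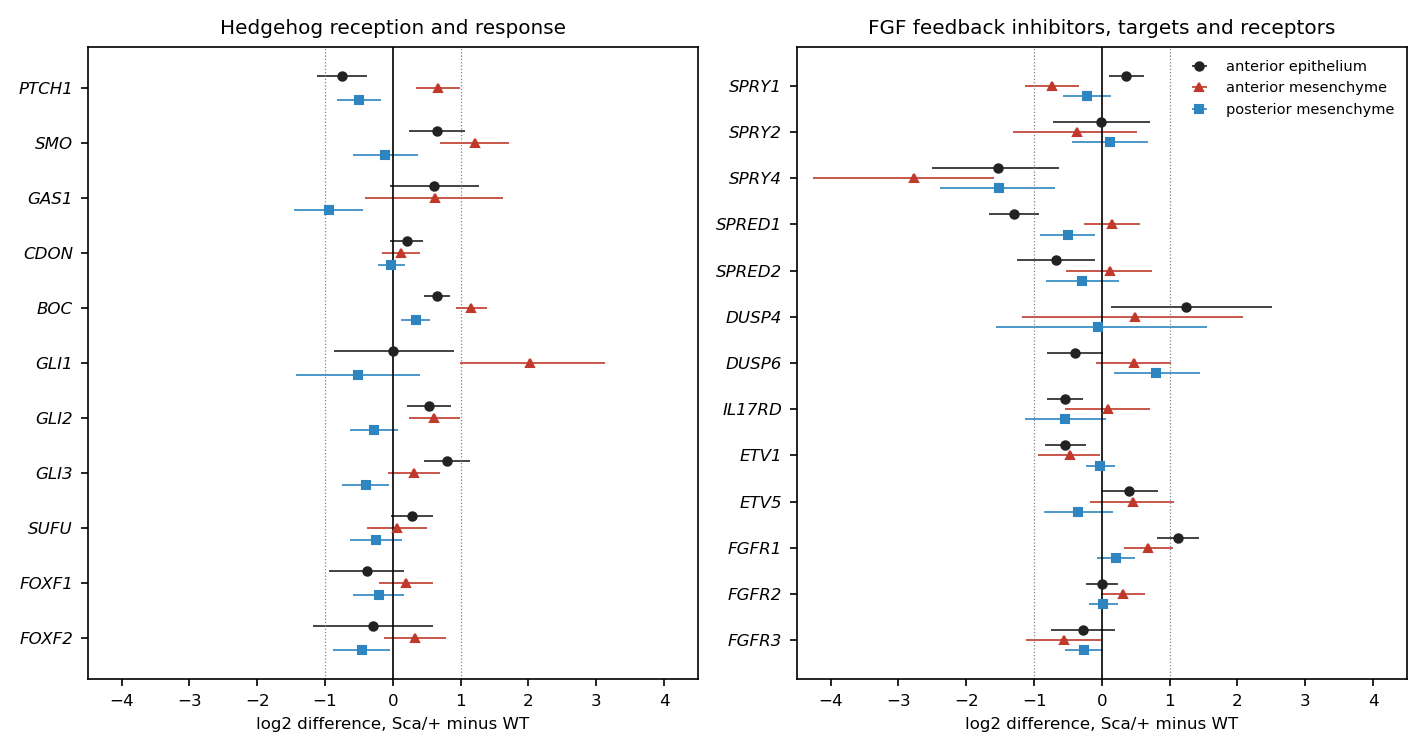
Log2 differences, *Sca*/+ minus WT, of Hedgehog reception and response genes and of FGF feedback inhibitors, targets and receptors, with 95% counting intervals; black circles are anterior epithelium, red triangles anterior mesenchyme and blue squares posterior mesenchyme, and dotted lines mark 1 log2 unit. *GLI1*, *SMO* and *BOC* lie beyond 1 in anterior mesenchyme (*SMO* and *BOC* at 0.97 and 0.93 after rescaling to the same total), and *SPRY4* beyond -1 in each tissue.

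Counted over the 4 genes, calls were made in every comparison. In anterior epithelium 1 gene was called by genotype (*SPRY4*, lower in *Sca*/+), against 22.2% of all genes compared (12.2% higher and 10.0% lower in *Sca*/+). In anterior mesenchyme 2 were called (*GLI1* higher, *SPRY4* lower), against 19.9% of all genes (11.5% higher and 8.37% lower). In posterior mesenchyme 2 were called (*FGF9* and *SPRY4*, both lower), against 17.0% (8.82% higher and 8.13% lower). Between posterior and anterior tissue, 1 was called in *Sca*/+ mesenchyme (*GLI1*, lower), where 18.7% of all genes were called (8.34% higher and 10.4% lower in posterior tissue). In *Sca*/+ epithelium 1 was called (*FGF9*, lower), against 13.7% (7.02% higher and 6.68% lower), and in WT mesenchyme 2 (*GLI1* and *GAS1*, higher), against 17.1% (9.15% higher and 7.97% lower). Between epithelium and mesenchyme, 1 was called in *Sca*/+ posterior tissue (*FGF9*, higher), where 25.8% of all genes were called (12.1% higher and 13.7% lower in epithelium). In *Sca*/+ anterior tissue 2 were called (*FGF9* higher, *GLI1* lower), against 25.8% (11.5% higher and 14.3% lower), and in WT anterior tissue 2 (*FGF9* higher, *SPRY4* lower), against 21.3% (8.66% higher and 12.7% lower). With 4 genes, these counts lie too near the share among all genes to say more than which gene was called where. Comparisons that use the same group value are not independent of each other.

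The wider pathways were described with a Hedgehog list of 47 genes, of which 34 were compared, and an FGF list of 79 genes, of which 48 were compared. In *Sca*/+ against WT anterior mesenchyme, 5 Hedgehog genes were called higher and none lower (14.7%, against 19.9% of all genes), and the median of the list was 0.33, against 0.04 for all genes. The 5 are *GLI1*, *SMO*, *BOC*, *HHAT*, the acyltransferase that attaches palmitate to Hedgehog ligands, at 1.72 (0.16 to 3.44), and *KIF7*, a kinesin of the primary cilium that regulates GLI factors, at 1.10. Rescaling each group to the same total left 2 of these calls, *GLI1* at 1.79 and *HHAT* at 1.49, and gave 0.87 for *KIF7*. In this tissue *HHAT* rests on only 11 steps in *Sca*/+ and 6 in WT. In posterior mesenchyme 2 Hedgehog genes were higher and 2 lower (11.8%, median -0.11, against 17.0% and -0.00 for all genes), and in anterior epithelium 2 and 2 (11.8%, median 0.02, against 22.2% and 0.00). The lower ones in anterior epithelium were *BCL2*, an inhibitor of apoptosis, at -1.29 and *HHAT* at -1.20.

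Between positions, the Hedgehog list had 1 gene higher and 5 lower in posterior *Sca*/+ mesenchyme (median -0.24, against 0.02 for all genes), and 5 higher and 1 lower in posterior WT mesenchyme (median 0.15, against 0.04). Each is 17.6% of the list, against 18.7% of all genes in *Sca*/+ and 17.1% in WT mesenchyme. In *Sca*/+ epithelium 3 were higher and 3 lower in posterior tissue (17.6%, against 13.7%), with a median of 0.10, against 0.03 for all genes. *SCUBE1*, of a secreted family that helps release Hedgehog ligand, was higher in posterior mesenchyme of both genotypes, by 1.09 (0.63 to 1.57) in *Sca*/+ and 1.60 (1.11 to 2.12) in WT tissue. *SCUBE2* of the same family was lower in both, at -1.13 (-1.58 to -0.68) and -1.16 (-1.81 to -0.54). *SCUBE3* was lower in posterior tissue at -1.36 in *Sca*/+ mesenchyme and -1.07 in *Sca*/+ epithelium, and differed by -0.91 in WT mesenchyme, where rescaling to the same total gives -1.17 and a call.

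Between compartments, the Hedgehog list had 10, 12 and 10 genes called in *Sca*/+ posterior, *Sca*/+ anterior and WT anterior tissue (29.4%, 35.3% and 29.4%, against 25.8%, 25.8% and 21.3% of all genes). Most were lower in epithelium, with 6, 10 and 7 of the 34 genes, among them *SCUBE1*, *FOXF2* and *ARRB1*, an arrestin that takes part in smoothened trafficking. Among all genes compared, too, more were lower than higher in epithelium, with 13.7%, 14.3% and 12.7% lower against 12.1%, 11.5% and 8.66% higher. *SCUBE3* and *MYCN*, a MYC family factor induced by Hedgehog signals in some mouse tissues, were higher in epithelium in all 3 pairs. The differences were 1.41, 1.12 and 1.74 for *SCUBE3* and 1.65, 1.08 and 1.48 for *MYCN*. Of all genes compared, 1.55% were called higher in epithelium in all 3 pairs.

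**Figure D4:**
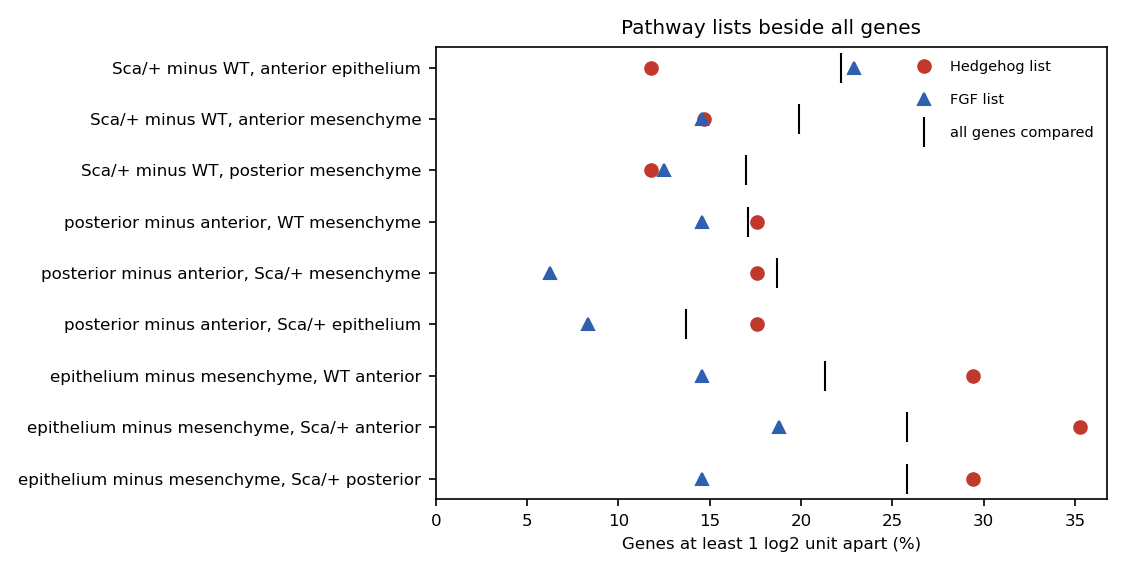
Share of the Hedgehog list (red circles, 34 genes) and of the FGF list (blue triangles, 48 genes) that differed by at least 1 log2 unit in either direction, in percent, beside the share of all 9987 genes compared (black ticks). The Hedgehog list lies above the ticks between compartments, at 29.4% to 35.3%, and by position in *Sca*/+ epithelium and WT mesenchyme, at 17.6% each. These shares rest on 6 to 12 of 34 genes, and no set test was run. The FGF list lies below the ticks in all comparisons other than *Sca*/+ minus WT anterior epithelium.

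By genotype, the FGF list had 11 genes called in anterior epithelium (22.9%, against 22.2% of all genes), 7 in anterior mesenchyme (14.6%, against 19.9%) and 6 in posterior mesenchyme (12.5%, against 17.0%). In anterior epithelium 5 were higher in *Sca*/+, led by the small GTPase gene *HRAS* at 2.13 (1.21 to 3.20), followed by *GPC1*, a heparan sulfate proteoglycan, at 1.33 and the kinase gene *MAP2K2* at 1.29. Lower there were 6, among them, beside *SPRY4* and *SPRED1*, the adaptor gene *GRB2* at -1.14 and *HS6ST1*, a heparan sulfate sulfotransferase, at -1.12. In anterior mesenchyme *GPC1* (1.47) and *MAP2K2* (1.01, or 0.78 after rescaling, which ends the call) were again higher, and *SDC4* (-1.58) and *SDC1* (-1.47) were among the lower ones, where *SDC1* and *SDC4* encode syndecans, proteoglycans of the cell surface. *HRAS* was called lower in *Sca*/+ in this tissue, at -1.08, opposite to anterior epithelium. Its *Sca*/+ value in anterior mesenchyme and its WT value in anterior epithelium rest on only 11 steps each. In posterior mesenchyme no gene of the list was called higher and 6 were lower, among them *PLCG1*, a phospholipase activated by FGF receptors, at -1.25 and *GRB2* at -1.15. The values of 5 of 48 genes (10.4%) lay lower in *Sca*/+ with no overlap between the genotypes, among them, with *SPRY4*, *SOS1*, *NRAS* and *BRAF*, against 5.10% of all genes. Those of 3 (6.25%), *MAP2K1*, *MAP2K2* and *GPC4*, lay higher with no overlap, against 7.40% of all genes. After rescaling to the same total these numbers were 8 (16.7%, against 7.17% of all genes) and 0 (against 4.83%), so the separation of *MAP2K1*, *MAP2K2* and *GPC4* depends on the scaling.

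Between compartments, *FGF9* and *IL17RD* were the only genes of the FGF list called higher in epithelium in all 3 pairs, as were 155 of all genes compared (1.55%). This count, too, was not planned and only describes the pattern. *IL17RD* stood at 68.1 CPM in *Sca*/+ posterior, 112 CPM in *Sca*/+ anterior and 163 CPM in WT anterior epithelium, and between 30.0 and 46.8 CPM in mesenchyme. Its epithelial excess was 1.18 (0.74 to 1.64), 1.26 (0.74 to 1.81) and 1.89 (1.47 to 2.32) in these 3 tissues.

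To find the genes most like each of the 4 over the 7 groups, log2 values were centred on each gene's mean, and 8714 genes with a symbol were ranked by the root mean square (RMS) distance. *GLI1* was nearest to *SLCO3A1*, an anion transporter gene (RMS 0.19 log2 units, Pearson r 0.95 over 7 groups), *RPAIN* (0.23) and *MVB12B* (0.26). Among the 3 genes nearest to *GAS1* were *TMEM63B*, which encodes an ion channel (0.28, r 0.91), and *NCBP3* (0.29). *FGF9* was nearest to the sulfate transporter gene *SLC26A2* (0.43, r 0.96), *IL17RD* (0.43, r 0.96) and *ORC1*, a gene of the DNA replication origin complex (0.45). *SPRY4* was nearest to *ZFP36*, which encodes a protein that speeds mRNA decay (0.36, r 0.94), *SCFD2* (0.44) and *CEBPB*, a transcription factor gene (0.46). *ZFP36* stood at 17.1 to 40.0 CPM in the 4 *Sca*/+ groups and at 79.7 to 200 CPM in the 3 WT groups, and so did not overlap between the genotypes either. It was picked for its nearness to *SPRY4* over these same values, so this likeness adds no separate evidence. The 7 points share the libraries of each group and its scaling, and these values describe the likeness only. The 4 genes were far from each other by the same measure, between 0.76 (*GLI1* and *GAS1*) and 1.65 log2 units (*FGF9* and *SPRY4*).

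**Figure D5:**
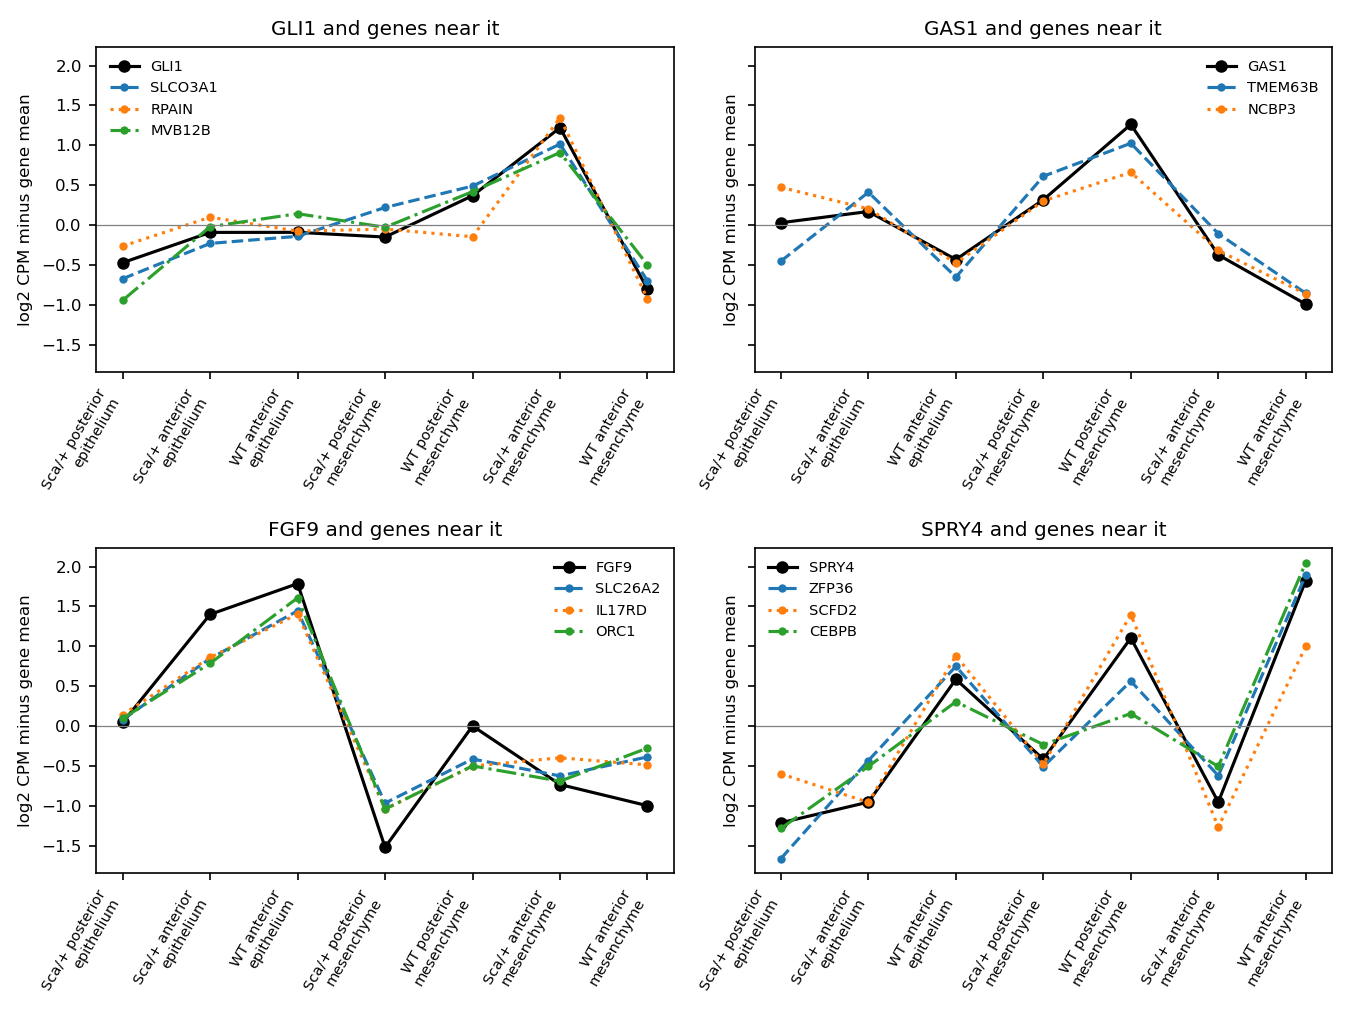
Log2 CPM minus each gene's mean over the 7 groups, for *GLI1*, *GAS1*, *FGF9* and *SPRY4* (black) and genes among the 3 nearest to each (colored). *FGF9* and *IL17RD* are high in anterior epithelium, and *SPRY4* and *ZFP36* are high in each WT group. The colored genes were picked for their nearness over these same 7 groups.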

How the data were processed

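Laser-captured dental tissue of hatchlings was sequenced in 24 samples (8 groups of 3). The authors depleted rRNA, used Trimmomatic for trimming, STAR for alignment and counting and edgeR for normalization. The paper cites the published *Pogona vitticeps* genome as the reference. A build name and the versions of these tools are not given in the sources used here. In their paper, the authors also tested differential expression with edgeR on 3 replicates, which is not reported here. They deposited log2 CPM as 1 value per gene and group, named as means, and whether a value holds 1 library or pooled reads is not known. Columns sum to 861122 to 1047960 CPM. In the 7 usable columns, 100% of values below 100 CPM are whole multiples of 1 step (tolerance 0.0065 CPM), and the lowest value of a column was 1.13 to 1.85 CPM. Steps served as counts. The WT posterior epithelium column, a fill series, was set aside.

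Differences are log2 values without a pseudocount, for genes whose mean reached 3 log2 CPM. Differences between differences have normal intervals. With 1 value per group no test over animals was possible, and limma fits planned for single samples were not run. Alternatives were rescaling to 1000000 CPM, centring on the median gene, a pseudocount of 1 CPM, no filter, and Pearson likeness. The intervals were tested on simulated Poisson counts at the steps of the columns. The simulation had no spread between animals or of amplification, so it checks only how the intervals are calculated. Named are the 4 genes, listed genes fixed by role, up to 4 genes per list, comparison and direction with the largest differences whose interval excludes 0 (not each is printed), and the 3 nearest genes. A few of these are not reported here. The 4 genes and the lists were chosen with earlier results of these data known. Symbols are those of the table; all 4 are in the RefSeq annotation, and no coordinates or sequences were used. Calculations ran in Python 3.11.15 (scipy 1.17.1, numpy 2.4.6, pandas 2.3.3), and plots in matplotlib 3.10.9.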

Additional observations from a re-analysis of the deposited data

Results flagged for a closer look

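The position difference of *GLI1* in mesenchyme had opposite signs in the genotypes. Posterior minus anterior was -1.37 log2 units in *Sca*/+ and 1.17 in WT tissue, and the difference between them was -2.54 (counting interval -3.83 to -1.24). With 1 value per group this difference was not tested over animals, and it rests on 24 and 27 steps in *Sca*/+ and 21 and 12 steps in WT tissue. The WT difference is 0.91 when each group is rescaled to the same total. Mesenchymal markers changed sign in the same way, with a median of -0.22 (3 of 29 called higher and 2 lower) in *Sca*/+ and 0.85 (11 higher and 0 lower) in WT tissue, and their part was not tested.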

How the results depend on the processing

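Of 108 alternative values of the differences of the 4 genes, 108 lay inside the counting interval of the value reported and 0 were reversed. Each of these intervals reaches farther to both sides than rescaling or centring moved any difference. For those alternatives, staying inside was therefore fixed by the width of the intervals and shows no robustness. Rescaling each group to a total of 1000000 CPM moved a difference by up to 0.26 log2 units and ended 1 call, that of *GLI1* between the WT positions in mesenchyme (0.91, against 1.17). Of 72 alternative counts of the lists, 71 were within 1.5 times the count reported. The exception was the Hedgehog list in anterior mesenchyme by genotype, where rescaling left 2 of 5 calls. Among single listed genes, rescaling kept 109 calls, ended 15 and added 8. An alternative chosen after seeing the data, the separation of the genotypes in rescaled groups, kept *SPRY4* and *BOC* without overlap, against 7.17% and 4.83% of all genes in their directions. Ranking by Pearson r kept 1 of the 3 genes nearest to *GLI1* and 0 of the 3 nearest to *GAS1*, *FGF9* and *SPRY4*, so the nearest genes depend on the measure. Values under about 10 steps, as of *FGF9* in mesenchyme, limit what can be separated. No paired analysis was possible because the table holds 1 value per group and no single samples, and leaving out a replicate and the fit with a replicate block were not run for the same reason.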
